A study of Mus musculus with 6 samples.

Results

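The genes described here are 40 molecular chaperones, cochaperones and unfolded protein response genes, taken by symbol from a table of 25,899 genes and sorted by the compartment in which their proteins work. They comprise 22 cytosolic genes, including the heat shock factors, 3 mitochondrial chaperones, and 15 genes of the endoplasmic reticulum (ER) with the stress sensors and factors that act there. A total of 39 were among the 13,869 genes with enough counts to be tested. The exception was Hspa1a, an inducible HSP70, which had 1, 2 and 0 counts in the 3 untreated libraries and 1 count in each of the 3 treated ones, so no fold change is given for it.

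Chaperones bind unfolded or partly folded proteins, and some, such as HSP70 and HSP90, use cycles of ATP binding and hydrolysis to help them fold. In the cytosol, HSP70 proteins work with J-domain cochaperones and hand some clients to HSP90, the ring-shaped chaperonin TRiC folds actin, tubulin and other proteins, and heat shock factor HSF1 raises transcription of many of these genes when misfolded protein accumulates. The ER has its own HSP70 (BiP, encoded by Hspa5), lectin chaperones and disulphide isomerases, and its unfolded protein response runs through ATF6, IRE1 (encoded by Ern1), whose ribonuclease splices the XBP1 transcript, and PERK. Embryonic stem cells, which divide rapidly, are known for high levels of several chaperones.

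The cells were E14tg2a mouse embryonic stem cells (129SV) with a stable cassette for a kinase fused to a receptor domain that binds 4-hydroxytamoxifen (4OHT), through which 4OHT activates ERK signalling. Cells had been grown with serum, LIF and 2 µM CHIR99021, a GSK3 inhibitor, and for the last 24 h with serum, LIF and 250 nM PD173074, an FGF receptor inhibitor. The untreated group (3 libraries) received no 4OHT, and the 4OHT group (3 libraries) received 250 nM for 2 h. Both groups carried the cassette and had 5 mM ethynyl uridine (EU) for the last 15 min, after which RNA that had taken up EU was captured and sequenced. Each group had 1 library from each of clones a, b and c, so the same clones appear in both. No library of cells without the cassette given 4OHT was analysed here, so effects of 4OHT that do not pass through the fusion cannot be told apart from those that do. The sources used here do not name what drives the cassette or say whether the clones were handled on separate days, and the p-values measure only how far these 6 libraries spread. Values per library are listed in the order of clones a, b and c throughout.

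Total counts ran from 7,295,334 to 12,168,380 per library, and 3 counts stood for 0.228 to 0.438 CPM (counts scaled to a common library total). Levels are given as CPM after TMM scaling, which sets the bulk of genes equal between libraries, and fold changes as log2 of 4OHT over untreated with their standard error (SE). ERK target genes responded in each clone: Egr1 went from 53.6, 59.1 and 85.9 CPM untreated to 3681, 3834 and 3985 CPM after 4OHT (log2 fold change 5.86 ± 0.18), and Spry4 and Dusp6 changed by 5.16 and 2.14. All 9 embryonic stem cell markers were measured, with a summed level of 2730.4 to 2814 CPM untreated and 2078 to 2473 CPM after 4OHT. They moved both ways: Nanog, Tdgf1, Esrrb and Sall4 fell (-1.66, -1.33, -1.32 and -1.15), Dppa4, Zfp42 and Pou5f1 rose (0.86, 0.67 and 0.36), and Sox2 and Utf1 were not called. The 8 fibroblast markers summed to 2.88 to 3.72 CPM untreated and 20.7 to 24.8 CPM after 4OHT, with 3 of 8 high enough to test. Twist1 (0.499 ± 0.321 to 18.1 ± 2.02 CPM, mean ± SD) and Col1a1 (0.259 ± 0.161 to 2.91 ± 0.851 CPM) rose, Pdgfrb fell (1.69 ± 0.219 to 0.893 ± 0.141 CPM), summed counts of the 3 libraries went from 4 to 0 for Col3a1, from 6 to 0 for Dcn, from 22 to 15 for Thy1 and from 3 to 5 for Col1a2, and Lum was at 0 in all libraries. Marker sums for primitive endoderm were 6.09 to 7.97 CPM untreated and 7.05 to 9.21 CPM treated, for trophoblast 11.0 to 17.1 CPM over all 6 libraries, and for neural ectoderm 5.78 to 7.37 and 3.54 to 5.11 CPM. The part of these shifts in the chaperone results was not tested. These are bulk libraries, so fewer cells making an RNA and less RNA made per cell cannot be told apart.

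Of the 39 tested chaperone and stress genes, 21 rose after 4OHT and 8 fell (edgeR quasi-likelihood test, adjusted p below 0.05), with a median log2 fold change of 0.32. Among all tested genes, 28.5% were called higher and 28.6% lower, with a median of -0.00054. In the cytosol, 16 of 21 tested genes rose and 1 fell (76.2% and 4.76%, median 0.36). In the mitochondrion, 1 of 3 genes rose and 2 fell (median -0.25). In the ER, 4 of 15 genes rose and 5 fell (26.7% and 33.3%, median 0.09), shares near those of all tested genes. With the clone as a block the members gave 24 higher and 8 lower (61.5% and 20.5%), against 34.1% and 33.3% of all tested genes. The ER genes then gave 7 higher and 5 lower (46.7% and 33.3%). In 27 of the 39 (69.2%) the 3 treated libraries lay wholly above or below the 3 untreated ones, against 63.3% of all tested genes, and 34 of 39 (87.2%) moved the same way in all 3 clones, against 78.5% of all tested genes. Without both libraries of clone b, 10 cytosolic genes were higher. Members called lower numbered 5 without untreated clone a or treated clone b. They numbered 3 without both libraries of clone a or of clone b, 2 of them in the ER. Calls over all tested genes also fell, from 3953 higher and 3968 lower. Without untreated clone a they were 3504 and 3583, and without treated clone b 3509 and 3469. Leaving out both libraries gave 2958 and 3020 for clone a, and 2713 and 2708 for clone b. The changes were moderate: the members ran from -0.84 to 1.11, and Herpud1 alone exceeded a log2 change of 1.

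**Figure D1:**
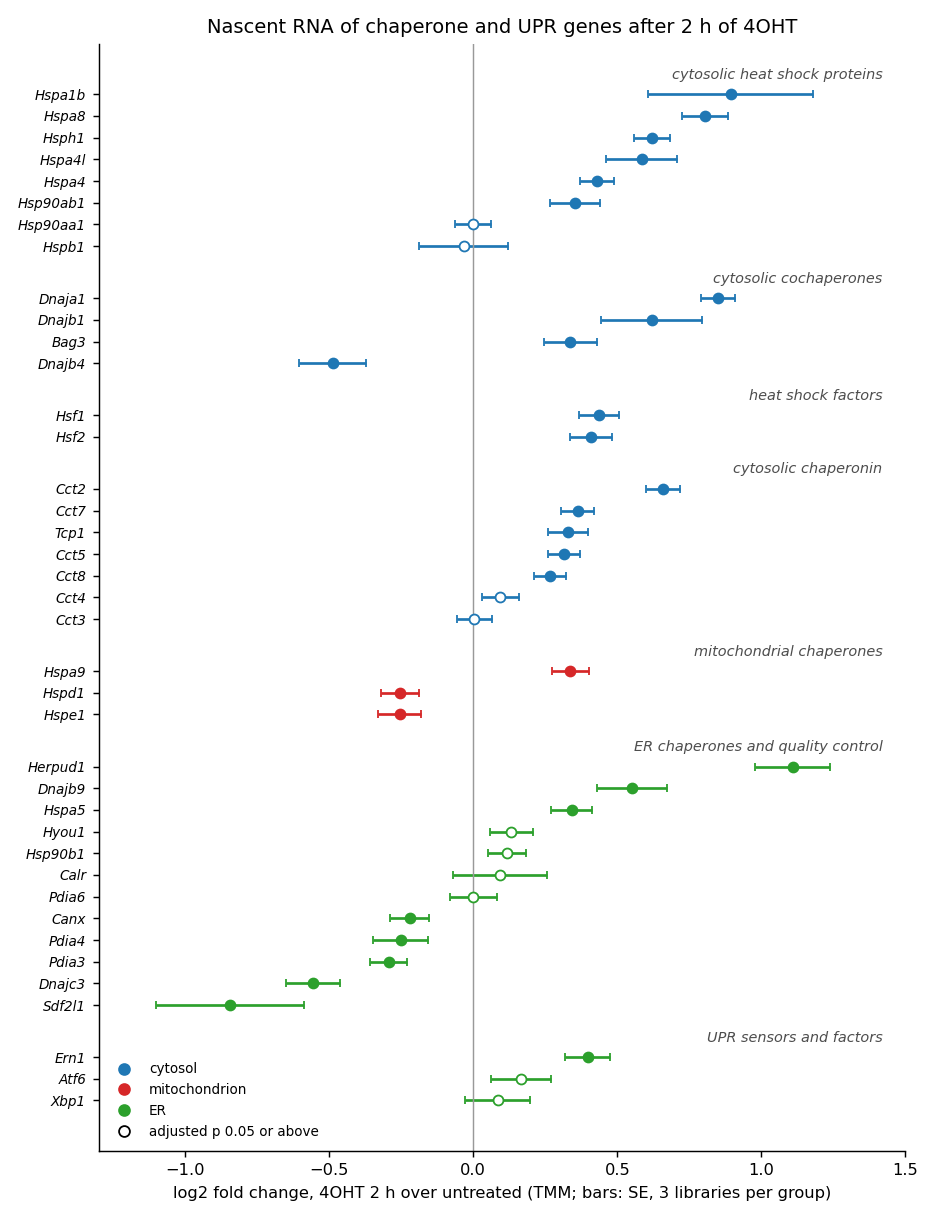
Log2 fold change of each of the 39 tested genes (4OHT for 2 h over untreated, TMM scaling) with its SE over 3 libraries per group, ordered within 7 subgroups and coloured by compartment. Filled points had an adjusted p below 0.05 and open points did not. Most cytosolic points lie to the right of 0, whereas the ER points run from -0.84 (Sdf2l1) to 1.11 (Herpud1).

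The counts depend on how the libraries are scaled, because the scaling sets where no change lies. With upper-quartile scaling 21 members were higher and 8 lower, as under TMM, against 3152 and 4756 of the 13,869 tested genes. By library size alone 11 members were higher and 10 lower (28.2% and 25.6%), against 17.4% and 41.0% of all tested genes. Scaled to the 13 genes with the highest counts, a scaling chosen after the data had been seen, 3 were higher and 8 lower (7.69% and 20.5%), against 9.88% and 40.6% of all tested genes. By compartment, library size gave 9 higher and 3 lower in the cytosol, 0 and 2 in the mitochondrion and 2 and 5 in the ER, and the 13-gene scaling 2 and 1, 0 and 2, and 1 and 5. Under these scalings the median of all tested genes was -0.20 and -0.32, and the median of the members 0.12 and -0.00. A scaling shifts all genes by near-equal amounts, so the gap between the members' median and that of all tested genes could hardly change. The members' median lay 0.32, 0.32 and 0.31 higher under TMM, library size and the 13-gene scaling, which tests none of these scalings. Among all called genes the share called higher was 49.9% with TMM, 29.7% by library size, 39.9% by upper quartile and 19.6% with the 13-gene scaling. A rise reported below is therefore a rise relative to most genes. Calls that held in all 19 other fits at the same threshold were the rises of Dnaja1, Hspa8 and Herpud1 and the falls of Dnajc3 and Dnajb4.

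**Figure D2:**
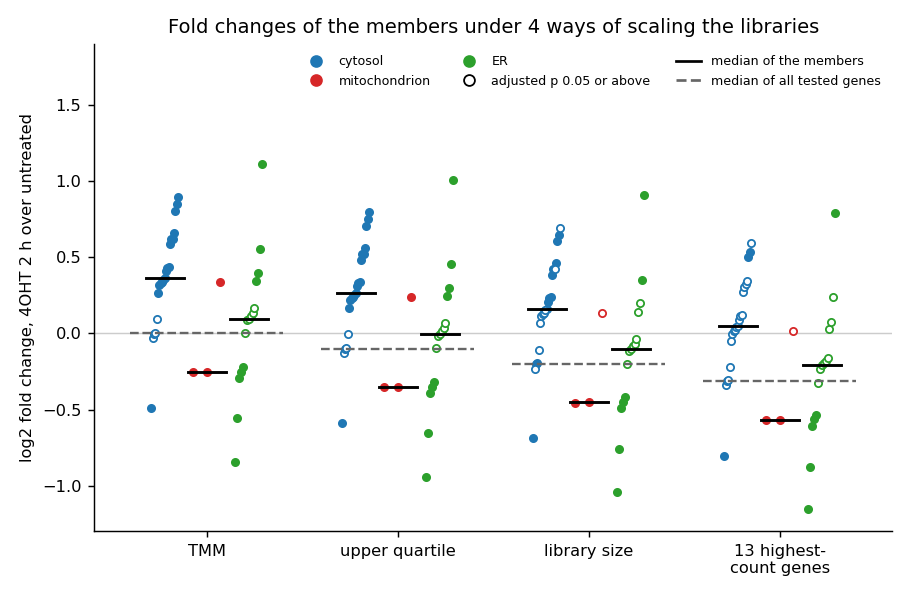
Log2 fold change of the 39 tested genes (vertical axis) under 4 scalings (horizontal axis), by compartment, with the compartment median (solid line) and the median of all 13,869 tested genes (dashed line). Filled points had an adjusted p below 0.05. The whole set shifts down with the dashed line, from a median of all genes of -0.00054 under TMM to -0.32 with the 13-gene scaling.

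Binding sites for the factors that drive these programmes are short, and their sequences were read from RefSeq promoter windows (GRCm38.p6), which run from 250 bases before to 50 bases after a gene's start and were at hand for 32 of the 40 genes. The windows were searched on both strands for the paired heat shock element (GAANNTTC or TTCNNGAA), the 3-unit heat shock element, which adds 1 more inverted unit to a pair and so overlaps it, the ER stress response element (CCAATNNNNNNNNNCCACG), and the letters TGACGTGG bound by XBP1 and ATF6. The paired heat shock element was found in 11 of the 32 (34.4%) and in 17% of all genes with a window, and those 11 were 9 cytosolic and 2 mitochondrial genes. The 3-unit element was found in 3 of the 32 (9.38%), against 0.662% of all genes, and the ER stress element in 6 (18.8%), against 0.137%. TGACGTGG was found in none of the 32 and in 0.714% of all genes, which says only that these letters are not in these windows. The 3-unit heat shock matches are shown wholly in capitals and the ER stress matches with their fixed letters in capitals, since they mark which members carry each element whatever their direction after 4OHT.

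Hsph1, heat shock element on the gene's minus strand at chr5:149636288-149636300, in an annotated exon: TTCTGGAAAGTTC
Hspd1, heat shock element on the gene's minus strand at chr1:55088059-55088076: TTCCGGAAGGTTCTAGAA
Hspe1, the same site on its plus strand: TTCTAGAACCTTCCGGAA
Hspa5, ER stress element on the gene's plus strand at chr2:34772025-34772043: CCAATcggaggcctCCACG
Dnajc3, ER stress element on the gene's plus strand at chr14:118937827-118937845: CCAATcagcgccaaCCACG
Canx, ER stress element on the gene's minus strand at chr11:50325800-50325818: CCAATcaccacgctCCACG
Pdia6, ER stress element on the gene's plus strand at chr12:17266491-17266509: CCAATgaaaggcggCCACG
Calr, ER stress element on the plus strand, opposite to the gene, at chr8:84847075-84847093: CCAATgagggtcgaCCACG
Hsp90b1, ER stress element on the gene's minus strand at chr10:86705638-86705656: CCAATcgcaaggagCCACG
Hsp90b1, a further ER stress element on the plus strand at chr10:86705533-86705551: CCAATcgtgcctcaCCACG

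The 3 genes with a 3-unit heat shock element did not move together: Hsph1 rose, and Hspd1 and Hspe1 fell. Those with an ER stress element likewise split, with Hspa5 higher, Dnajc3 and Canx lower, and Hsp90b1, Calr and Pdia6 not called. The site of Hspd1 and Hspe1 is 1 stretch of DNA between these divergent genes, whose starts lie 216 bases apart and whose windows share 285 bases; it lies in an annotated exon of an Hspd1 transcript. The Hspa5 site lies in an annotated exon of Hspa5, and the sites of Dnajc3, Canx, Pdia6, Calr and Hsp90b1 lie outside annotated exons. For Dnajc3, the ER gene with the smallest adjusted p among those that fell, the 250 bases before the start are given to show where the element sits, with all of it in capitals, 105 to 87 bases before the start (plus strand, chr14:118937682-118937931).
Dnajc3: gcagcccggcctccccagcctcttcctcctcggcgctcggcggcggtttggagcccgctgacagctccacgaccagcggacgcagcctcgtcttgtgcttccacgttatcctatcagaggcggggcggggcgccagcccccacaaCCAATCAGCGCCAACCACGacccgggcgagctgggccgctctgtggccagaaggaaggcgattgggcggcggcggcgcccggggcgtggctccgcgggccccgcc

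Among the cytosolic heat shock proteins, 6 of 8 tested rose, and Hsp90aa1 and Hspb1 were not called. By library size 4 were higher and 1 lower, and with the 13-gene scaling only Hspa8 was called. Among all tested genes 28.5% were higher and 28.6% lower under TMM. The shares were 17.4% and 41.0% by library size, and 9.88% and 40.6% with the 13-gene scaling. The constitutive HSP70 Hspa8 (HSC70) had 395, 388 and 466 CPM untreated and 736, 706 and 738 CPM after 4OHT, a log2 fold change of 0.80 ± 0.08 (adjusted p = 1.7e-05). Every treated library was well above every untreated one. Hsph1 (HSP110, a nucleotide exchange factor for HSP70) had 99.5, 94.0 and 92.2 CPM untreated and 152, 144 and 144 CPM treated (0.62 ± 0.06, adjusted p = 1.7e-05), and its relative Hspa4 had 439, 448 and 444 and 607, 597 and 589 CPM (0.43 ± 0.06, adjusted p = 0.00014). Both sets of 3 were narrow and did not overlap. Hspa4l, a further member of the HSP110 family, rose by 0.58 (adjusted p = 0.0025), by 0.84, 0.56 and 0.29 in clones a, b and c.

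The inducible HSP70 Hspa1b was close to the limit of detection, at 1.36, 0.987 and 1.96 CPM untreated and 2.63, 2.60 and 2.63 CPM after 4OHT, which are 17, 13 and 20 counts and 23, 21 and 18 counts. Its log2 fold change was 0.89 ± 0.29 (adjusted p = 0.022), and the call was kept in 9 of 19 other fits. It was lost without untreated clone a (0.87), untreated clone b (0.67), treated clone a (0.89) or treated clone b (0.90), among others. No library thus held more than 23 counts of Hspa1b. Hspa1b shares 78.5% of its transcript with near-identical copies (95% identity or more over at least 100 bases), Hspa1a among them, so the counts of the pair are uncertain.

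The HSP90 pair, whose proteins hold signalling clients such as kinases and receptors, did not give the same result. Hsp90ab1, the constitutive form, rose from 939, 981 and 1140.4 CPM to 1259, 1271 and 1379 CPM (0.35 ± 0.09, adjusted p = 0.0057). Hsp90aa1, the stress-inducible form, had 498, 486 and 510.2 CPM untreated and 515, 498 and 478 CPM treated (-0.00 ± 0.06, adjusted p = 0.98). Its groups overlapped; the difference between the 2 genes was not tested. The rise of Hsp90ab1 was not called without both libraries of clone a (0.32) or of clone b (0.34). Nor was it called by library size (0.16) or with the 13-gene scaling (0.05). By library size Hsp90aa1 was called lower (-0.20, edgeR adjusted p = 0.018). The small heat shock protein Hspb1 was also not called, at -0.03 (adjusted p = 0.87), with fold changes of 0.15, -0.27 and -0.02 in the 3 clones. Near-identical copies elsewhere in the genome cover 84.5% of the Hspa8 transcript, 68.7% of Hsp90aa1 and 72.6% of Hspb1, and the sources do not say how shared reads were counted.

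Of the 4 cytosolic cochaperones 3 rose and 1 fell (75% and 25%), against 28.5% and 28.6% of all tested genes. By library size and with the 13-gene scaling only Dnaja1 was called higher and only Dnajb4 lower. The shares of all tested genes were then 17.4% and 41.0%, and 9.88% and 40.6%. Dnaja1, a J-domain protein that stimulates HSP70, had 145, 148 and 143 CPM untreated and 272, 262 and 252 CPM after 4OHT (0.85 ± 0.06, adjusted p = 1.7e-06), with 0.91, 0.82 and 0.81 in clones a, b and c. Its groups lay far apart, and its span overlaps Smu1. Dnajb1 (HSP40) had 36.4, 41.2 and 56.6 CPM and 55.7, 65.8 and 84.6 CPM (0.62 ± 0.18, adjusted p = 0.012); it rose in each clone, but the groups overlapped, and clone c was highest in both. Without both libraries of clone b this call (0.59) and that of Bag3 (0.25) were lost. Bag3, which links HSP70 to selective autophagy, had 38.2, 35.1 and 33.8 and 45.3, 49.4 and 40.5 CPM (0.34 ± 0.09, adjusted p = 0.010), with no overlap between groups. The span of Bag3 overlaps the counted gene 2610306O10Rik on the same strand. Dnajb4, a close relative of Dnajb1, went the other way, from 34.4, 36.4 and 36.7 CPM to 20.9, 28.6 and 27.3 CPM (-0.49 ± 0.12, adjusted p = 0.0048). It was the only cytosolic gene of the set called lower under TMM, with clone a lowest after 4OHT.

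Both heat shock factors rose, as did 28.5% of all tested genes. Hsf1, the main regulator of the heat shock response, had 49.5, 45.5 and 46.0 CPM untreated and 65.9, 61.5 and 63.4 CPM after 4OHT (0.44 ± 0.07, adjusted p = 0.00043). Hsf2, which can form mixed complexes with HSF1, had 94.7, 96.6 and 90.3 CPM and 132, 127 and 114 CPM (0.41 ± 0.07, adjusted p = 0.00079). Neither gene's groups overlapped, and both calls held by library size but were lost with the 13-gene scaling (0.12 and 0.09).

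**Figure D3:**
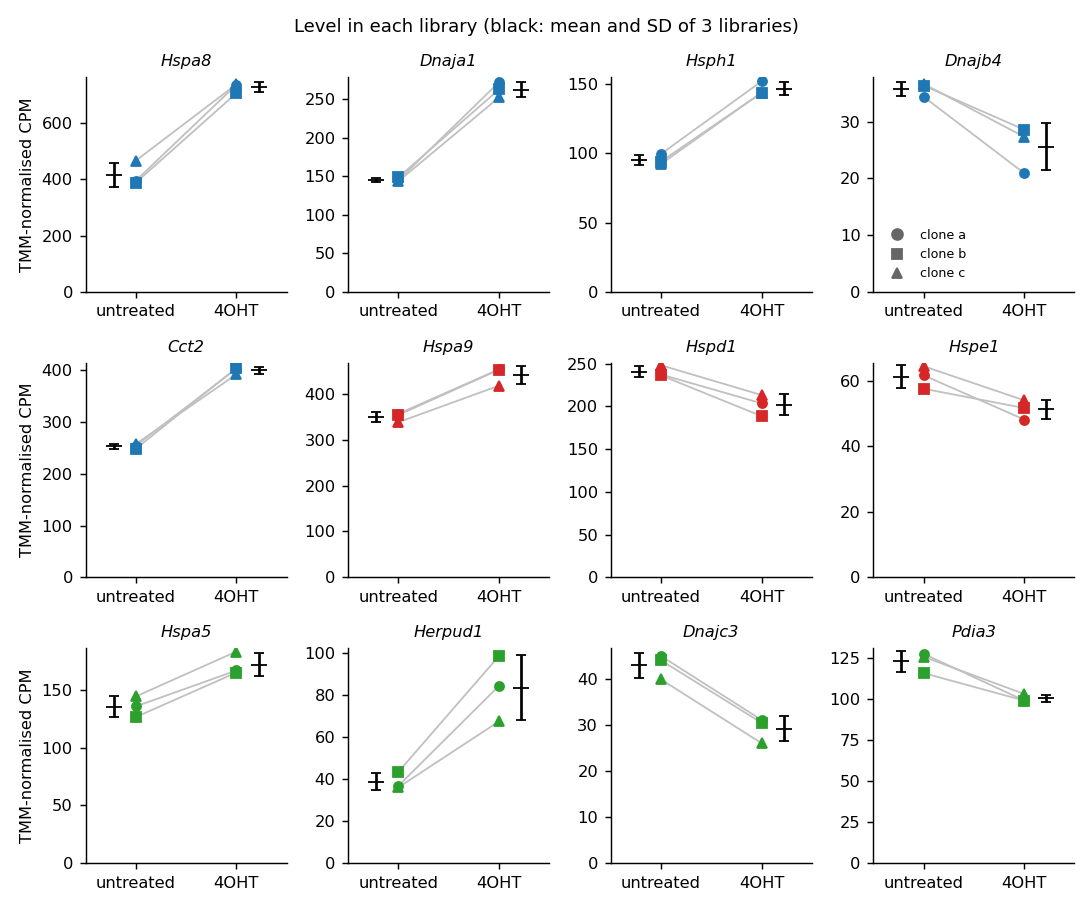
TMM-normalised CPM (vertical axes, from 0) of 12 genes in each library, untreated and after 4OHT, with symbols for clones a, b and c, grey lines joining a clone's 2 libraries and black bars giving mean and SD of 3 libraries. Colours mark cytosol (blue), mitochondrion (red) and ER (green). Hspa8, Dnaja1, Hsph1 and Cct2 rose in each clone, Dnajb4, Hspd1, Hspe1, Dnajc3 and Pdia3 fell in each, and Herpud1 ran from 67.4 to 98.5 CPM after 4OHT.

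Subunits of the chaperonin TRiC, which assemble in equal numbers in the finished ring, did not change by equal amounts. Of 7 measured subunits, 5 rose (71.4%, against 28.5% of all tested genes). By library size 2 were higher and 1, Cct3, was lower (-0.19, edgeR adjusted p = 0.017), against 17.4% and 41.0% of all tested genes. Cct2 had 254, 248 and 258 CPM untreated and 403, 405 and 392 CPM after 4OHT (0.66 ± 0.06, adjusted p = 7.3e-06). Cct7 had 329, 321 and 321 and 422, 418 and 407 CPM (0.36 ± 0.06, adjusted p = 0.00041), and Cct5 192, 189 and 188 and 235, 239 and 234 CPM (0.32 ± 0.06, adjusted p = 0.00082). In these 3 the replicates lay close together and the groups did not overlap. Tcp1 (CCT1) and Cct8 rose by 0.33 and 0.26 (adjusted p = 0.0025 and 0.0023), calls that were lost without both libraries of clone b (0.31 and 0.26). Cct3 and Cct4 were not called, at 0.00 ± 0.06 and 0.09 ± 0.06 (adjusted p = 0.97 and 0.23), with overlapping groups. The spread from Cct3 to Cct2 was 0.00 to 0.66, set beside SEs of 0.06 for each of the pair. The 13-gene scaling called no subunit, against 9.88% of all tested genes higher and 40.6% lower, with Cct5 and Cct8 at -0.00 and -0.05. Tcp1, Cct7 and Cct8 overlap other counted genes.

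The 3 mitochondrial chaperones divided by complex. Hspa9 (mortalin, the mitochondrial HSP70, which pulls imported proteins into the matrix) had 356, 354 and 338 CPM untreated and 453, 452 and 418 CPM after 4OHT (0.34 ± 0.06, adjusted p = 0.0012). The chaperonin HSP60 gene Hspd1 had 237, 236 and 248 CPM and 204, 189 and 213 CPM (-0.25 ± 0.07, adjusted p = 0.0074). Its lid, the HSP10 gene Hspe1, had 61.7, 57.6 and 64.5 CPM and 48.2, 51.7 and 54.1 CPM (-0.26 ± 0.08, adjusted p = 0.015). The groups did not overlap for any of the 3 genes, and each moved the same way in all clones. Among all tested genes, 63.3% did not overlap and 78.5% moved the same way in all clones. Leaving out both libraries of clone a or of clone b lost the calls of Hspd1 (-0.27 and -0.22) and Hspe1 (-0.21 and -0.31), and leaving out treated clone a alone lost that of Hspe1 (-0.21). The rise of Hspa9 was not called by library size (0.14) or with the 13-gene scaling (0.02). Hspd1 and Hspe1 fell by near-equal amounts and share the promoter region shown above; their annotated spans also overlap, and near-identical copies cover 71.1% and 81.0% of their transcripts.

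Ratios of raw counts within a library do not depend on the scaling. They were formed from pairs chosen after the values had been seen and are given as a description, with no test. Counts of Hspd1 per count of Hspa9 were 0.690 ± 0.039 (SD, n = 3) untreated and 0.459 ± 0.048 after 4OHT, whereas Hspe1 per Hspd1 was 0.254 ± 0.009 and 0.255 ± 0.019. The proportion of HSP10 to HSP60 counts thus moved by less than its SD, and that of HSP60 to mitochondrial HSP70 by more. The summed ER counts per summed cytosolic counts were 0.350 ± 0.016 untreated and 0.281 ± 0.003 after 4OHT, with all 3 treated libraries below all 3 untreated ones.

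**Figure D4:**
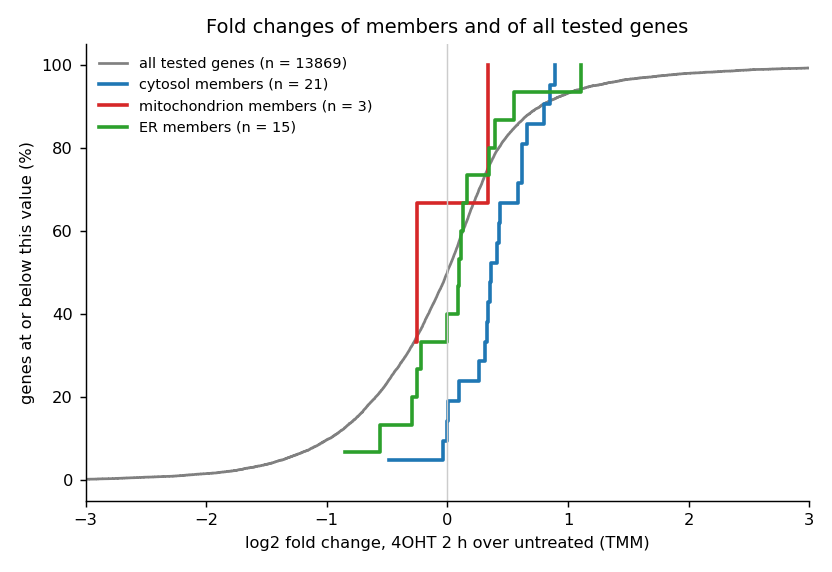
Cumulative share of genes (vertical axis, %) at or below each log2 fold change (horizontal axis, TMM scaling) for all 13,869 tested genes, 21 cytosolic, 3 mitochondrial and 15 ER members. The cytosolic curve lies to the right of the grey curve over most of its range (median 0.36), and the ER curve crosses it (median 0.09).

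The ER genes moved in both directions, with 26.7% higher and 33.3% lower, near the 28.5% and 28.6% of all tested genes. With the clone as a block 46.7% were higher and 33.3% lower, against 34.1% and 33.3% of all tested genes. The ER quality control genes held the largest rise and the largest fall of the whole set. Herpud1, a membrane protein that helps remove misfolded proteins from the ER for degradation, had 36.7, 43.3 and 36.0 CPM untreated and 84.3, 98.5 and 67.4 CPM after 4OHT (1.11 ± 0.13, adjusted p = 5.2e-05). Its treated libraries were all above its untreated ones, with clone b highest in both groups. Dnajb9 (ERdj4), a J-domain partner of BiP that also restrains IRE1, had 31.5, 32.2 and 33.1 and 40.5, 57.3 and 44.0 CPM (0.55 ± 0.12, adjusted p = 0.0029), with clone b again highest after 4OHT. Hspa5 (BiP), the ER HSP70 and a repressor of the stress sensors, had 136, 127 and 145 CPM and 167, 165 and 184 CPM (0.34 ± 0.07, adjusted p = 0.0024). Its groups did not overlap, and its call was lost by library size (0.14) and with the 13-gene scaling (0.03), as was that of Dnajb9 with the 13-gene scaling (0.24).

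Genes of the same compartment that fell included another J-domain partner of BiP. Dnajc3 (p58IPK), which is also an inhibitor of PERK, had 45.0, 44.0 and 39.9 CPM untreated and 31.1, 30.4 and 26.0 CPM after 4OHT (-0.56 ± 0.09, adjusted p = 0.00061). All treated libraries lay below all untreated ones, and clone c was lowest in both groups. Sdf2l1, a cochaperone that keeps clients bound to BiP soluble, had 4.57, 3.49 and 4.61 and 2.17, 1.73 and 3.22 CPM (-0.84 ± 0.26, adjusted p = 0.017); this rests on 150 counts in all untreated and 55 in all treated libraries. The disulphide isomerases Pdia3 and Pdia4 fell by 0.29 and 0.25 on the log2 scale (adjusted p = 0.0030 and 0.041), and the lectin chaperone Canx (calnexin), with which Pdia3 works on glycoproteins, by 0.22 (adjusted p = 0.017). For Pdia4 the groups overlapped, from 108, 88.1 and 104 to 89.7, 75.8 and 86.8 CPM. Of these 5 falls, that of Pdia4 was lost in 7 of 19 other fits, among them those without untreated clone a (-0.19) or c (-0.24) and treated clone b (-0.18) or c (-0.27). That of Sdf2l1 was lost without untreated clone a (-0.78), treated clone a (-0.79) or treated clone b (-0.66). Without untreated clone a (-0.22) or treated clone b (-0.17) the call of Canx was lost, and without both libraries of clone a that of Pdia3 (-0.26), which overlaps Catsper2.

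The remaining ER chaperones were not called. Hsp90b1 (GRP94) and Hyou1 (GRP170) were at 0.12 ± 0.07 and 0.13 ± 0.07 (adjusted p = 0.16 for both), and with the clone as a block their adjusted p were 0.017 and 0.047. Calr (calreticulin) was at 0.09 ± 0.16 (adjusted p = 0.65) and Pdia6, whose span overlaps Atp6v1c2, at 0.00 ± 0.08 (adjusted p = 1.00). Without the block, BiP thus rose while the genes for its large partners GRP94 and GRP170 missed the threshold. With the block Hspa5, Hsp90b1 and Hyou1 were all called higher, and by library size none of them was called. The differences between these genes were not tested. Raw counts of Herpud1 per count of Dnajc3 went from 0.901 ± 0.084 (SD, n = 3) to 2.85 ± 0.34, and of Hspa5 per count of Pdia4 from 1.36 ± 0.10 to 2.05 ± 0.17, again as a description.

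Of the 3 sensors and factors, 1 rose (33.3%, against 28.5% of all tested genes). Ern1 (IRE1) had 47.7, 46.4 and 42.4 CPM untreated and 59.6, 63.8 and 56.4 CPM after 4OHT (0.40 ± 0.08, adjusted p = 0.0016), with no overlap, although the call was lost by library size (0.20) and with the 13-gene scaling (0.08). Xbp1, whose transcript IRE1 splices, had 44.6, 37.2 and 38.3 CPM and 48.4, 41.9 and 36.7 CPM (0.08 ± 0.11, adjusted p = 0.54). Its groups overlapped, and gene counts do not separate spliced from unspliced Xbp1. Atf6, the sensor that is cut in the Golgi to free its transcription factor part, had 162, 156 and 133 CPM and 181, 181 and 142 CPM (0.17 ± 0.11, adjusted p = 0.20). Clone c was lowest in both groups, and with the clone as a block the adjusted p of Atf6 was 0.0034, at a fold change of 0.16. Without treated clone c Atf6 was called higher, at 0.27.

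Clones differed in 8 of the 39 members (20.5%) beside treatment, against 12.6% of all tested genes (edgeR joint test of the clone terms). These were Calr (adjusted p = 4.9e-06), Dnajb1 (4.8e-05), Atf6 (0.0012), Herpud1 (0.0048), Pdia4 (0.0099), Hspb1 (0.021), Hsp90ab1 (0.029) and Xbp1 (0.047). Calr stood at 155, 146 and 209.6 CPM untreated and at 156, 160.1 and 229 CPM after 4OHT, so that clone c was highest in both groups. Clone c was likewise highest for Dnajb1 in both groups, and lowest for Atf6. Each clone has 1 library per group, so whether the response itself differed between clones could not be tested.

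Levels were compared between genes only per length. Per kilobase of annotated exon, the mean untreated level was highest for Hsp90ab1, at 340.1 CPM, and it was also highest per kilobase of gene span, at 185 CPM. Both lengths were used, since the sources do not say if introns were counted. Hspa1b had the lowest exon-based level among tested members, at 0.512 CPM per kilobase, and Hspa4l the lowest span-based level, at 0.256. Hspa5 stood at 24.4 CPM per kilobase of span, Hspd1 at 23.1 and Hspa9 at 20.6, and cytosolic Hspa8 at 45.7. Per kilobase of exon Hspa5 stood at 32.1 CPM, Hspd1 at 91.1, Hspa9 at 81.05 and Hspa8 at 96.8. The order of Hspa5 and the mitochondrial genes thus depended on the length used.

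Other genes of the same pathways were described from lists chosen with earlier results of these data known. Of 21 other cytosolic chaperones and cochaperones tested, 12 rose and 4 fell (57.1% and 19.0%, median 0.32). Among all tested genes 28.5% rose and 28.6% fell. Library size gave 7 higher and 6 lower (33.3% and 28.6%), against 17.4% and 41.0% of all tested genes. The 13-gene scaling gave 2 and 5 (9.52% and 23.8%), against 9.88% and 40.6% of all tested genes. These shares of all tested genes also apply to the lists that follow. Hspb8, a small heat shock protein that works with BAG3, fell from 52.6, 47.9 and 51.2 CPM to 19.1, 19.8 and 20.8 CPM (-1.35 ± 0.08, adjusted p = 7.3e-07), and Fkbp4, an HSP90 cochaperone of steroid receptors, fell from 207, 202 and 200.1 to 114, 109.7 and 109.7 CPM (-0.87 ± 0.06). The J-domain genes Dnajb5 and Dnajb2 rose by 1.45 and 0.93. Hspb8 thus moved opposite to its partner gene Bag3. Of 6 prefoldin subunits, which pass actin and tubulin to TRiC, 4 rose and 2 were not called (median 0.39), while by library size 2 were higher. Those that rose were Pfdn2, Vbp1, Pfdn5 and Pfdn4, by 0.43, 0.41, 0.41 and 0.37. With the 13-gene scaling these 4 calls were lost (0.11, 0.09, 0.11 and 0.05), and by library size those of Pfdn5 (0.21) and Pfdn4 (0.17). The call of Pfdn5 was lost without untreated clone a (0.42) or b (0.28) and without treated clone a (0.37) or c (0.37). Of 9 other mitochondrial chaperones and proteases, 2 rose and 3 fell (22.2% and 33.3%, median 0.09). Library size gave 1 higher and 4 lower (11.1% and 44.4%), and the 13-gene scaling 0 and 4 (0% and 44.4%). The inner membrane protease Yme1l1 rose by 0.52 (0.20 and not called with the 13-gene scaling), and Dnaja3, the J-domain partner of mortalin, changed by -0.55, with the proteases Afg3l2 and Clpp at -0.37 and -0.32. Clpp was not called without both libraries of clone a (-0.30) or of clone b (-0.29).

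In the wider ER list 7 of 23 genes were higher and 8 lower (30.4% and 34.8%, median -0.04), shares near the 28.5% and 28.6% of all tested genes. By library size 4 were higher and 12 lower, and with the 13-gene scaling 3 and 11. Ero1l, the oxidase that recharges disulphide isomerases, rose from 37.5, 32.8 and 34.1 CPM to 102, 93.3 and 94.99 CPM (1.48 ± 0.08, adjusted p = 2.3e-07), and P4hb, the classical disulphide isomerase, rose by 0.83. Pdia5, another isomerase, fell from 69.9, 66.6 and 65.4 CPM to 35.3, 35.9 and 31.0 CPM (-0.98 ± 0.08), and the translocon subunit Sec61a1 rose by 0.58 (0.26 and not called with the 13-gene scaling). Isomerase genes therefore moved both ways: P4hb rose, and Pdia3, Pdia4 and Pdia5 fell. Of 10 genes of the PERK branch and other sensors, 5 rose and 2 fell (50% and 20%, median 0.27). Library size gave 3 higher and 3 lower (30% and 30%), and the 13-gene scaling 1 and 3 (10% and 30%). Ddit3 (CHOP), a target of ATF4, had 15.0, 15.2 and 10.5 CPM untreated and 76.3, 76.6 and 64.0 CPM treated (2.40 ± 0.13), the largest rise among the genes of these lists that are named here. Atf4 itself rose by 0.68 and Ppp1r15b, a subunit of the phosphatase that reverses PERK's action, by 0.37, while Eif2ak3, which encodes PERK, fell to 55.1, 51.7 and 57.0 CPM from 73.6, 67.9 and 68.9 CPM (-0.36 ± 0.07). The call of Ppp1r15b was lost by library size (0.17) and with the 13-gene scaling (0.05), and that of Atf4 with the 13-gene scaling (0.36).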

How the data were processed

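Captured nascent RNA (EU-seq) was sequenced for 3 clones, each untreated and after 2 h of 4OHT. The table deposited by the authors holds raw read counts, 1 row per gene symbol and not normalized. Per the submitters' processing notes, STAR, featureCounts and mm10 were used; the sources used here give no version, strand setting or treatment of shared reads, so overlapping genes (10 of the 40) and near-identical copies cannot be separated.

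Counts were tested with edgeR 4.0.16 (R 4.3.3): filterByExpr (minimum count 10, total 15), TMM, glmQLFit and glmQLFTest on 3 against 3 libraries, Benjamini-Hochberg over 13,869 genes, called below 0.05. The code was tested on simulated data. No 2 libraries of a group agreed within counting noise (chi-square of 2.29 to 11.3 per gene). The floor of 3 counts covers counting error only, and each SE or SD includes the spread between libraries. Both groups hold libraries of the same named clones, which pairs them: correlations of deviations from the group means were 0.282 (clone a), 0.165 (clone b) and 0.357 (clone c), and -0.283 to 0.068 between clones. Alternatives were DESeq2 size factors, library size, upper-quartile scaling, other filters, DESeq2 1.42.0, limma-voom (limma 3.58.1), the clone as a block, stricter thresholds, each library or clone left out, and scaling to the 13 genes with the highest counts, added after the data had been seen.

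Members, lists, motifs and tests were chosen with earlier results of these data known. Values per library are given for 11 genes picked by role, the 3 smallest adjusted p in each of 7 subgroups and any gene called against most of its subgroup, and up to 4 genes are named per wider list. Other members are named to account for each count. Cct6a of the wider cytosolic list was not analysed here. Positions are from GENCODE M21 (GRCm38, the assembly of mm10), near copies from BLAST+ 2.17.0, and promoters from RefSeq. Hsp90aa1, Hspa9, Hyou1, Hspa8, Atf6, Hsp90ab1, Cct4 and Hsf1 had no window at hand.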

Additional observations from a re-analysis of the deposited data

How the results depend on the processing

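By library size, with the 13-gene scaling and at an added minimum log2 change of 1, all genes called higher numbered 2407, 1370 and 947 in place of 3953, and members called higher 11, 3 and 1 in place of 21. The minimum of 1 left 1324 of 3968 genes lower and 0 of 8 members, which edgeR had called without it. An adjusted p of 0.01 left 4 members lower. Members differing between clones numbered 3 by DESeq2 and 5 at 0.01, in place of 8. With libraries or clones left out, members called lower ranged from 3 to 8, and all genes called lower from 2708 to 4328. In edgeR the replicate block gave 24 members higher and 8 lower, changing the calls of Hsp90b1, Hyou1 and Atf6 and of no other member; with the block in DESeq2, Hspa1b and Sdf2l1 were not called.

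Fold changes near 0 changed sign with the scaling. By library size, Cct3 was at -0.19, Cct4 at -0.11, Hsp90b1 at -0.082, Hyou1 at -0.067, Calr at -0.10, Pdia6 at -0.20, Xbp1 at -0.12 and Atf6 at -0.036, and the ER median was -0.10. Upper-quartile scaling gave Cct3 -0.095, Cct4 -0.0056, Calr -0.0051, Pdia6 -0.098, Xbp1 -0.015 and the ER median -0.0051. The 13-gene scaling gave Cct3 -0.31, Cct4 -0.22, Cct5 -0.0021, Cct8 -0.051, Hsp90b1 -0.20, Hyou1 -0.18, Calr -0.21, Pdia6 -0.32, Xbp1 -0.23, Atf6 -0.16, a median of -0.21 for the ER genes and of -0.0021 for all members. Pdia6 was at -0.0039 with no filter on low counts and -0.0034 with the replicate block. With libraries or clones left out, ranges that crossed 0 were -0.029 to 0.029 for Hsp90aa1, -0.16 to 0.12 for Hspb1, -0.026 to 0.025 for Cct3, -0.099 to 0.25 for Calr, -0.12 to 0.070 for Pdia6 and -0.022 to 0.18 for Xbp1. Relative to TMM, the median shift of all tested genes was -0.20 by library size, -0.099 by upper quartile and -0.31 with the 13-gene scaling. Small positive values therefore turned negative under these scalings. The cause of the changes with no filter, with the replicate block and with libraries or clones left out was not tested. Counts limit Hspa1a, Hspa1b and Sdf2l1, and no interaction of clone and treatment could be fitted with 1 library per clone and group.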

Other observations

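Cryab, the small heat shock protein alpha-B crystallin of the wider cytosolic list, was too low to test. Untreated libraries of clones a, b and c held 5, 3 and 23 counts and treated ones 5, 2 and 4, so that untreated clone c held more counts than the other 5 libraries together. The 40 chaperone and stress genes took 0.700% to 0.721% of all counts in the untreated libraries and 0.750% to 0.765% after 4OHT, and the shares of the groups did not overlap.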
